A study of Rattus norvegicus with 6 samples.

Results

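Among 17139 genes counted in primary rat nucleus pulposus cells, 8 encode the classical high mobility group (HMG) proteins of the A and B families and the nuclear lamins. They are Hmga1, Hmga2, Hmgb1, Hmgb2, Hmgb3, Lmnb1, Lmnb2 and Lmna, selected by symbol, and each had 1 row in the deposited table. The set was chosen with earlier bradykinin over control values of these data known, among them those of Hmgb2 and Lmnb1. The values of all 8 in that comparison are therefore given as a description and support nothing by themselves. Nucleus pulposus cells are the cells of the gel-like centre of the intervertebral disc. In culture they received either no treatment (control, n = 3 libraries) or bradykinin at 10 µM (n = 3 libraries). Bradykinin is a kinin peptide that acts mainly on the B2 receptor. The labels give no genotype, strain or age of the rats, and not how long treatment lasted or whether each library had its own animal or culture. All p-values below thus rest on the scatter between libraries, part or all of which may be technical.

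HMG proteins are abundant, non-histone proteins that bend DNA and loosen or reorganise chromatin. HMGA proteins bind the minor groove of AT-rich DNA through AT hooks, and HMGB proteins bind through HMG boxes. Lamins are intermediate filament proteins that form the meshwork under the inner nuclear membrane. Lmna encodes the A-type lamins, while Lmnb1 and Lmnb2 encode the B-type lamins. In human fibroblasts, senescence is known to bring loss of lamin B1 and of HMGB2, release of HMGB1 from the nucleus and gathering of HMGA proteins in heterochromatin foci. The series asks how bradykinin alters expression in disc cells, with senescence as a stated interest, and these genes are commonly read in that setting.

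The libraries held between 12883067 and 15462764 counts in total, and single members had 79 to 27635 counts in a library. One library, bradykinin replicate 3, was unlike the rest. Across genes it correlated with them at a Spearman rho of 0.960 to 0.963, compared with up to 0.996 between others. Its log2 levels scattered around the mean of the other libraries with an SD of 0.61 over genes, and those of the rest with 0.25 to 0.29. The comparison of each member is therefore given for 6 libraries and for the 5 without that library. Other single genes are given for 6 libraries unless stated otherwise. Of 13 nucleus pulposus markers 10 were tested, 4 on the higher and 6 on the lower side with bradykinin. Their summed level was 1039 to 1246 CPM with bradykinin and 980 to 1056 CPM in controls. Most of this sum came from Basp1 and the proteoglycan gene Acan, so it does not describe the markers as a set. Acan averaged 437 ± 117 CPM with bradykinin and 262 ± 8.31 CPM in controls. Basp1 averaged 492 ± 46.3 and 508 ± 28.9 CPM, and its groups overlapped. Krt8, Car12 and Cd24 were read at low depth, with 10 to 27, 7 to 13 and 56 to 106 counts in a library. Without bradykinin replicate 3, Acan was called higher (log2 fold change 0.95) and Car3, a carbonic anhydrase gene, lower (-1.44). CPM are counts scaled to a common library size. The cartilage collagen gene Col2a1 had 0 to 2 counts in a library. Of the endothelial, immune and end-plate chondrocyte markers, 4 of 5, 2 of 6 and 2 of 5 were found by symbol. Over the markers found, each of these lists summed to 1.53 CPM or less in every library. Pecam1 had 0 to 3 counts and Csf1r 0 to 4. The levels of the markers not found are not known. The smooth muscle and pericyte markers summed to 2162 to 3051 CPM with bradykinin, of which replicate 3 gave the highest, and to 2950 to 3080 CPM in controls. Without replicate 3, Acta2, Tagln and Myh11 of this list fell and Des rose (0.46). The fibroblast markers, mostly Col1a1, summed to 37767 to 48799 CPM with bradykinin and 41493 to 44693 CPM in controls. The osteoblast marker Runx2 averaged 41.9 ± 12.8 and 56.2 ± 0.374 CPM, lower in all bradykinin libraries and not called in either fit. Sp7, also on the osteoblast list, went the other way at very low depth and was not tested. It had 6, 7 and 8 counts with bradykinin and 4, 1 and 1 in controls. The part of these markers in the results below was not tested. Whether a lower level reflects fewer cells of a type or less RNA per cell cannot be told apart in such bulk samples.

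Several members shared letters upstream of their annotated starts. The cell cycle homology region (CHR) is an element known from genes expressed in G2 and mitosis, and it is often paired with CCAAT boxes. The letters TTTGAA or TTCGAA were searched for on both strands, together with CCAAT, in the 250 bases before each start in RefSeq promoters of the GRCr8 assembly. A gene counted if any of its windows held the letters. CHR letters occurred upstream of Hmgb2, Hmgb3 and Lmnb1, 3 of 8 members, and of 18.54% of 27457 genes (17.37% of 33469 windows). CCAAT letters occurred upstream of Hmgb1, Hmgb2, Hmgb3 and Lmnb1, and of 36.13% of genes. Both kinds were found together in Hmgb2, Hmgb3 and Lmnb1, and in 6.8% of genes. For comparison, 9 of 31 matched genes of S phase and mitosis held both. The GC box GGGCGG, searched likewise, was present upstream of Hmga1, Hmgb2, Hmgb3 and Lmna and of 33.54% of genes. The 130 bases before the start are printed for the 3 genes that held both, 5′ to 3′ on the strand of the gene, with CHR and CCAAT letters of either strand in capitals.
Hmgb2, chr16:37723951-37724080, minus strand: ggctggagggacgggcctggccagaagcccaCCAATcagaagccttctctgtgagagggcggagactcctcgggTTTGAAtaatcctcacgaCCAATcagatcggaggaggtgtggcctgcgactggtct
Hmgb3, chrX:154340976-154341105, plus strand: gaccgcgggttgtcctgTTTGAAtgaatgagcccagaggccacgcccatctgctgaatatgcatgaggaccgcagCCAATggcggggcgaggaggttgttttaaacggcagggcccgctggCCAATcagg
Lmnb1, chr18:52373809-52373938, plus strand: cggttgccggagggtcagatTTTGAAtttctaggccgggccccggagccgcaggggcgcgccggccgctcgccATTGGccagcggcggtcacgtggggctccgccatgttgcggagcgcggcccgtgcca
In Hmgb2 the CHR letters began 56 bases before the start, between CCAAT letters at 99 and 38 bases, and a further CHR match lay at 243 bases. In Lmnb1 they began at 110 bases and the CCAAT letters, on the opposite strand, at 57 bases. In Hmgb3, for which the window printed is 1 of 3 that RefSeq gives, they began at 113 bases, with CCAAT letters at 55 and 9 bases. The second window overlaps it and holds the same letters, and the third holds neither. A match describes these letters only. No binding was measured, and the starts used in these cells are not known from the counts.

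In all 6 libraries, 6 of 8 members lay on the higher side with bradykinin, with a median log2 fold change of 0.18, against 6372 of 12413 tested genes and a median of 0.008. The edgeR quasi-likelihood test called 0 members at a Benjamini-Hochberg adjusted p of 0.05 or less. The background was 0% of 12413 genes, and the members' adjusted p ran from 0.437 to 0.821. An unadjusted p under 0.05 was reached by Hmga1, Hmgb2 and Lmnb1, and by 6.84% of tested genes. DESeq2 called Hmga1 alone among the members, and 0.354% of all genes. In the 5 libraries without bradykinin replicate 3, edgeR called 1 member, Hmga1, as higher. There 3.1% of 12536 genes were called and 1.95% were called as higher. The CPM of the groups did not overlap for 5 members and for 17.5% of tested genes. Of those 5, Hmga1, Hmgb2, Lmnb1 and Lmna were higher in all bradykinin libraries, as were 8.84% of genes, and Hmga2 was lower, as were 8.71%. All 8 members passed the filter on low counts in both fits. As the members were picked with this comparison known, nothing is read from these counts.

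**Figure D1:**
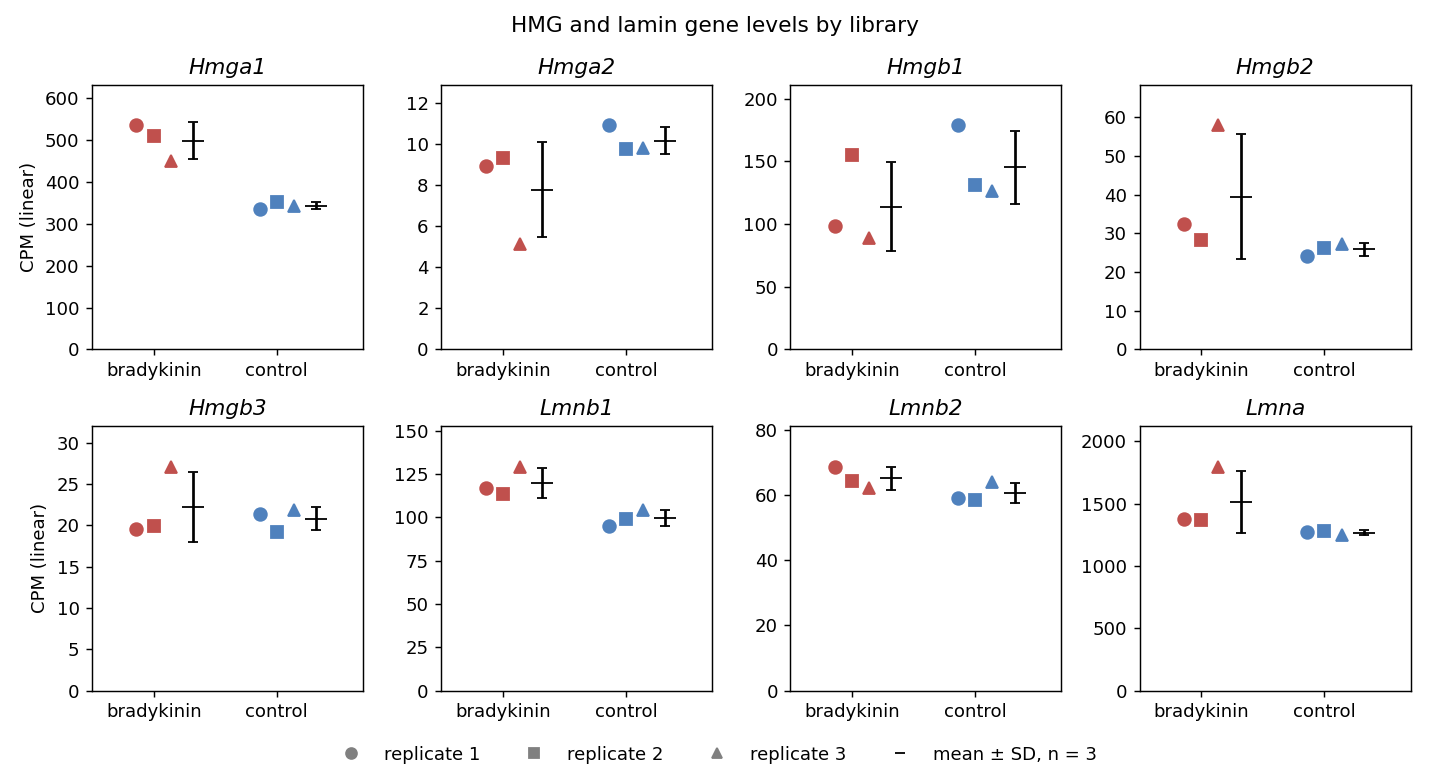
CPM of the 8 genes (linear vertical axes starting at 0, a separate scale for each gene) in each bradykinin library (red) and control library (blue), with the mean and SD of 3 libraries in black. Hmga1 shows a clear gap between the groups, whereas for Hmgb2 and Hmga2 most of the distance comes from bradykinin replicate 3 (triangle), at 58.0 and 5.14 CPM.

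Hmga1 encodes an AT-hook protein abundant in dividing and embryonic cells. Hmga1 (ENSRNOG00000000488) had 536, 511 and 450 CPM with bradykinin (replicates 1, 2 and 3, in this order throughout) and 335, 353 and 343 CPM without it. All bradykinin libraries lay above all controls, and the odd library, replicate 3, was the nearest of them to the controls. The means were 499 ± 44.1 CPM with bradykinin and 344 ± 8.97 CPM in controls (SD, n = 3 each), a log2 fold change of 0.54 ± 0.10 (SE). Its p was the 20th smallest of all tested genes, yet its edgeR adjusted p was 0.437. DESeq2 on the same libraries gave 0.53 ± 0.12 with an adjusted p of 0.0085. Without bradykinin replicate 3 the log2 fold change was 0.61 ± 0.04, and Hmga1 rose (edgeR adjusted p = 8.03e-06).

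Hmga2, the other AT-hook gene, is a fetal and stem cell gene repressed by let-7 microRNAs. It was read at low depth, 79 to 168 counts a library. Hmga2 (ENSRNOG00000042460) was at 8.91, 9.30 and 5.14 CPM in the bradykinin replicates and at 10.9, 9.76 and 9.80 CPM in the controls. The groups did not overlap, but only narrowly, apart from the low value of bradykinin replicate 3. The log2 fold change was -0.39 ± 0.23 in 6 libraries and -0.16 ± 0.13 in 5, and the gene was not called in either. The direction was thus opposite to that of Hmga1. Within a library there were 60.2, 55.0 and 87.6 Hmga1 counts for each Hmga2 count with bradykinin and 30.7, 36.2 and 35.0 in controls. These count ratios are not corrected for transcript length, so they compare libraries and not the amounts of the proteins or transcripts.

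Of the 11 genes on the let-7, Lin28 and Igf2bp list around Hmga2, 8 were tested and 0 were called in either fit. On the higher side lay 2 of 8 in 6 libraries (median log2 fold change -0.07) and 6 of 8 in 5 libraries (median 0.10). Lin28b, which encodes a blocker of let-7 maturation, had 0 counts in every library, and its relative Lin28a had 1 count in all. Arid3a had a log2 fold change of 0.42 ± 0.31, Igf2bp3, an RNA-binding protein gene, -0.19 ± 0.14, and the growth regulator gene Plag1 -0.53 ± 0.51. Without bradykinin replicate 3 the values of these genes were 0.70, -0.11 and -0.08. In that library Plag1 was at 0.846 CPM, from 13 counts.

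Hmgb1 encodes the most studied HMGB protein, a DNA chaperone that acts as an alarm signal when it leaves the cell. Hmgb1 (ENSRNOG00000029813) was at 98.1, 155 and 88.9 CPM with bradykinin and at 179, 131 and 126 CPM in controls. The groups overlapped, and the controls themselves were widely spread. The means were 114 ± 35.7 and 145 ± 29.1 CPM, a log2 fold change of -0.35 ± 0.23 in 6 libraries and -0.20 ± 0.16 in 5. Among the members it had the highest coefficient of variation in controls, 20.0%, whereas the others ranged from 1.46% to 6.66%.

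The table holds further rows with the same orthology annotation as Hmgb1, and RSEM, which the submitters name, divides reads between similar sequences by estimate. Of 11 rows annotated as HMGB1, 10 had counts. How alike their sequences are was not measured here. The Hmgb1 row itself held 21.4%, 32.4% and 16.3% of the counts of these rows with bradykinin, and 38.0%, 28.7% and 28.6% in the controls. A row without a symbol, ENSRNOG00000065098, was at 262, 230 and 304 CPM with bradykinin and 201, 244 and 234 CPM in controls. Control replicate 1 had the most Hmgb1 and the least of this row, and bradykinin replicate 3 the least Hmgb1 and the most of this row. Hmgb1l2 was at 54.5, 52.5 and 86.8 CPM with bradykinin and 50.6, 42.4 and 46.1 CPM in controls. Hmgb1-ps34 was at 33.0, 28.6 and 51.5 CPM and at 30.6, 30.5 and 29.0 CPM. Both stood highest in bradykinin replicate 3.

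Summed over these rows, HMGB1-annotated counts were at 459, 478 and 546 CPM with bradykinin and at 470, 458 and 441 CPM in controls. The sum varied less than the Hmgb1 row, with coefficients of variation of 9.21% and 3.23% in place of 31.3% and 20.0%. Its log2 fold change was 0.12 ± 0.10 in 6 libraries and 0.04 ± 0.04 in 5, on the other side of 0 from the Hmgb1 row. The sum was not called in either fit. The direction thus differed between the Hmgb1 row and the sum. This sum, like that for Hmgb2, was chosen after the data were seen.

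Hmgb2 encodes the HMGB protein most linked to proliferating cells. Hmgb2 (ENSRNOG00000013167) was at 32.3, 28.3 and 58.0 CPM with bradykinin and at 24.2, 26.2 and 27.3 CPM in controls. The groups did not overlap, but replicate 2 lay just above the highest control, and replicate 3 lay far above all other libraries. The means were 39.5 ± 16.1 and 25.9 ± 1.60 CPM, with coefficients of variation of 40.7% and 6.17%. The log2 fold change was 0.61 ± 0.26 in 6 libraries (edgeR adjusted p = 0.727) and 0.23 ± 0.09 in 5 (0.249). Leaving out that 1 library thus cut the change by more than 1.5 times.

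Of 6 rows annotated as HMGB2, 5 had counts, and most of their counts fell on Hmgb2l1 and not on Hmgb2. Hmgb2 itself held 18.4%, 17.3% and 25.1% in the bradykinin replicates and 17.6%, 18.2% and 18.6% in the controls. Hmgb2l1 was at 143, 135 and 172 CPM with bradykinin and 113, 117 and 119 CPM in controls, with no overlap. Its log2 fold change was 0.36 ± 0.11 in 6 libraries, where it was not called. Without bradykinin replicate 3 it rose by 0.25 ± 0.05 (edgeR adjusted p = 0.0185).

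The sum of the HMGB2 rows was at 176, 163 and 231 CPM with bradykinin and 137, 144 and 147 CPM in controls. It had a log2 fold change of 0.41 ± 0.14 in 6 libraries (edgeR adjusted p = 0.710). Without bradykinin replicate 3 the sum rose by 0.25 ± 0.05 (edgeR adjusted p = 0.0202). In contrast to HMGB1, the sum and the single row had the same direction. In these 5 libraries the sum of HMGB2 rows was called where the Hmgb2 row alone was not.

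**Figure D2:**
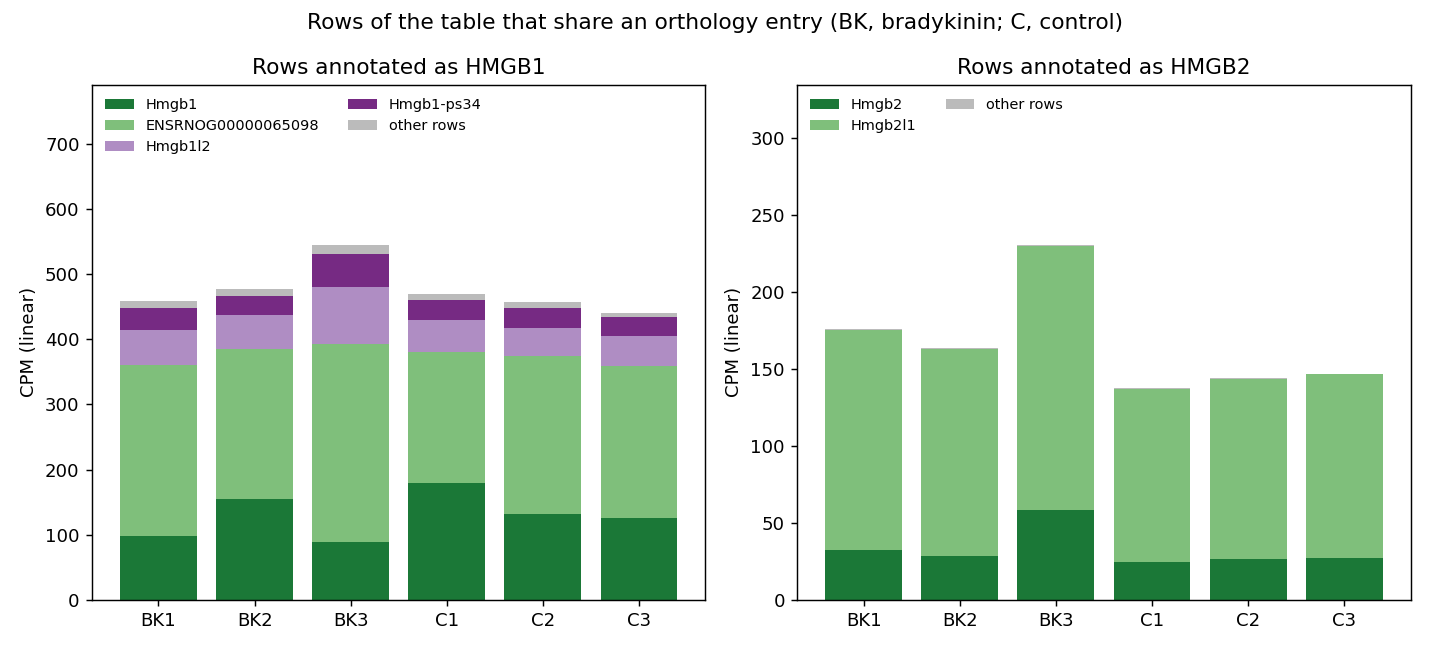
Stacked CPM (linear axis from 0) of the table rows annotated as HMGB1 (left) and HMGB2 (right) in bradykinin (BK) and control (C) libraries. The HMGB1 total ranges from 441 to 546 CPM while the Hmgb1 row moves between 88.9 and 179 CPM, and the HMGB2 total is above the controls in all bradykinin libraries, with 231 CPM in BK3.

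Hmgb3, a family member known from stem and progenitor cells, was nearly level. Hmgb3 (ENSRNOG00000011096) was at 19.6, 20.0 and 27.1 CPM with bradykinin and at 21.4, 19.2 and 21.8 CPM in controls. Its higher side in 6 libraries came from bradykinin replicate 3. The log2 fold change was 0.10 ± 0.16 with that library and -0.07 ± 0.10 without it, and the gene was not called in either fit.

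Secreted HMGB1 is known to signal through the receptor RAGE, through toll-like receptors and, bound to CXCL12, through CXCR4. Of 12 genes on this list of HMGB1 export and reception, 9 were tested, 6 lay on the higher side and 0 were called in 6 libraries. The median log2 fold change was 0.14. Cxcl12, which encodes the chemokine partner of HMGB1, had the smallest p and was at 208, 203 and 224 CPM with bradykinin and 298, 307 and 304 CPM in controls. Its log2 fold change was -0.52 ± 0.09 in 6 libraries. It fell without bradykinin replicate 3, by 0.56 ± 0.04 on the log2 scale, the only call of the list. Ager, which encodes RAGE, was at 0.991 ± 0.290 and 0.477 ± 0.197 CPM, from 5 to 20 counts a library, with a log2 fold change of 1.06 ± 0.41. The adaptor gene Myd88 had a log2 fold change of 0.20 ± 0.11. Cxcr4 had 1 count in all 6 libraries together and was not tested.

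Lmnb1 encodes lamin B1. Lmnb1 (ENSRNOG00000013774) had 117, 113 and 129 CPM with bradykinin and 95.2, 99.3 and 104 CPM in the controls. The groups did not overlap, and replicate 3 was the highest library of each. The means were 120 ± 8.45 and 99.5 ± 4.45 CPM, a log2 fold change of 0.27 ± 0.10 (edgeR adjusted p = 0.714). Without bradykinin replicate 3 it was 0.21 ± 0.06 (adjusted p = 0.0661), and 0.0308 when genes of low count were kept. The call thus differed with the filter.

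Lmnb2, the second B-type lamin gene, differed less between the groups. Lmnb2 (ENSRNOG00000025742) was at 68.7, 64.4 and 62.1 CPM with bradykinin and at 59.1, 58.4 and 64.1 CPM in controls. Control replicate 3 lay within the bradykinin range, so the groups overlapped. The log2 fold change was 0.10 ± 0.10 in 6 libraries and 0.14 ± 0.07 in 5, and neither was called. Lmnb2 was the member whose level in bradykinin replicate 3 differed least from the other libraries, by -0.02 in log2.

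Lmna encodes lamins A and C. Lmna (ENSRNOG00000019638) was at 1377, 1367 and 1798 CPM with bradykinin and at 1270, 1284 and 1247 CPM in controls. The controls agreed closely, with a coefficient of variation of 1.46%, and bradykinin replicates 1 and 2 lay just above them. The means were 1514 ± 246 and 1267 ± 18.5 CPM. The log2 fold change was 0.26 ± 0.13 in 6 libraries and 0.11 ± 0.04 in 5, more than 1.5 times smaller without replicate 3, and the gene was not called in either fit.

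The balance of B-type to A-type lamin transcripts did not separate the groups. There were 8.48, 8.28 and 7.19 Lmnb1 counts for 100 Lmna counts in the bradykinin replicates and 7.50, 7.73 and 8.34 in the controls. The log2 ratio was 0.02 higher with bradykinin in 6 libraries and 0.09 higher in 5, and the groups overlapped in both. For Lmnb2 there were 4.99, 4.71 and 3.45 counts for 100 of Lmna with bradykinin and 4.65, 4.55 and 5.14 in controls. The lowest ratio of either kind belonged to bradykinin replicate 3, where Lmna was high. Between the B-type genes, there were 170, 176 and 208 Lmnb1 counts for 100 Lmnb2 counts with bradykinin and 161, 170 and 162 in controls.

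**Figure D3:**
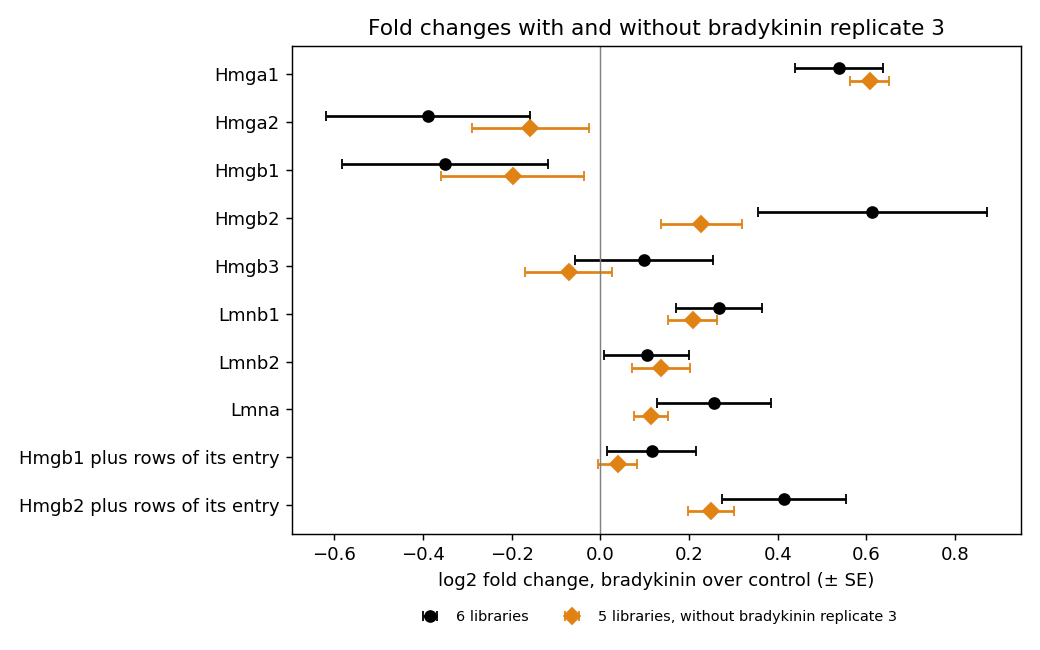
Log2 fold change of bradykinin over control with its SE (horizontal axis) for each gene and for Hmgb1 and Hmgb2 with the rows of the same orthology entry added, in 6 libraries (black circles) and in 5 libraries without bradykinin replicate 3 (orange diamonds). Hmga1 keeps its size, 0.54 and 0.61, while Hmgb2 moves from 0.61 to 0.23 and Hmgb1 crosses 0 when its rows are summed.

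Genes of lamin-binding and other nuclear envelope proteins were near level as a group. Of 16 tested, 8 lay on the higher side and 8 on the lower, with a median log2 fold change of 0.01, and 0 were called in either fit. Tor1aip2, whose product activates torsin, had 69.4 ± 6.07 CPM with bradykinin and 61.5 ± 1.99 CPM in controls (0.17 ± 0.10). Banf1, which encodes the DNA-bridging protein BAF, had a log2 fold change of 0.27 ± 0.19, and 0.01 without bradykinin replicate 3, where it was at 119 CPM. Tmem43 had a log2 fold change of 0.13 ± 0.09. All 4 tested enzymes of prelamin processing had log2 fold changes above 0 in 6 libraries (median 0.11), and 0 were called. Among them Fnta, a farnesyltransferase subunit gene, was at 0.13 ± 0.15 and the protease gene Rce1 at 0.16 ± 0.18. Zmpste24, which encodes the enzyme that cuts prelamin A, was at 0.08 ± 0.09. Without bradykinin replicate 3, Fnta, Rce1 and Zmpste24 were at -0.03, 0.07 and 0.08, and 3 of the 4 enzymes lay above 0.

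Other HMG-box and HMGN genes divided evenly. Of 17 tested, 9 lay on the higher side, with a median log2 fold change of 0.01, and 0 were called in either fit. Tox, which encodes a lymphocyte HMG-box factor, had the smallest p, averaging 3.81 ± 0.598 CPM with bradykinin against 6.30 ± 1.66 CPM without (-0.73 ± 0.24). Ubtf, an RNA polymerase I factor gene, was at 202 ± 10.6 and 171 ± 8.51 CPM (0.24 ± 0.09). Tfam, which encodes the mitochondrial HMG-box factor, was at 26.7 ± 5.82 and 21.1 ± 0.370 CPM (0.34 ± 0.16). Without bradykinin replicate 3 the log2 fold changes of Tox, Ubtf and Tfam were -0.60, 0.19 and 0.15. Heterochromatin genes had 12 of 15 tested members on the higher side, a median of 0.07 and 0 calls in either fit. Suv39h2, a histone H3 lysine 9 methyltransferase gene, was at 6.66 ± 0.615 and 4.33 ± 0.393 CPM (0.62 ± 0.17). Cbx3, which encodes the heterochromatin protein HP1 gamma, and Suv39h1 had log2 fold changes of 0.21 ± 0.11 and 0.20 ± 0.15.

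Genes of S phase and mitosis moved alongside part of the set. Of 38 tested, 37 lay on the higher side in 6 libraries (median log2 fold change 0.27) and 0 were called, while 15 rose and 0 fell without bradykinin replicate 3 (median 0.26). This list was drawn up with their higher level known, so it is no independent evidence of direction. Rrm2, a ribonucleotide reductase subunit gene, had a log2 fold change of 0.46 ± 0.09, Nusap1, a spindle protein gene, 0.52 ± 0.11 and the kinase gene Aurkb 0.49 ± 0.10. Relative to the mean of the 6 libraries, the median log2 level of the list was 0.20, 0.05 and 0.21 with bradykinin and -0.22, -0.13 and -0.07 in the controls. Lmnb1 took a similar course, at 0.10, 0.05 and 0.25 with bradykinin and -0.20, -0.14 and -0.07 in controls. In bradykinin replicate 1 it lay below the lower quartile of the list, 0.12. Hmgb2 had the same order of libraries, at 0.05, -0.14 and 0.89, and -0.37, -0.25 and -0.19, and stood well above the list in bradykinin replicate 3 alone. In every other library Hmgb2 lay below the lower quartile of the list. Hmga1 did not share this order, at 0.37, 0.31 and 0.12, and -0.30, -0.23 and -0.27. The part of cell cycle genes in the levels of Lmnb1 and Hmgb2 was not tested. Of 8 tested cell cycle inhibitors, 4 lay on the higher and 4 on the lower side, and 0 were called in 6 libraries. In 5 libraries Cdkn2c, an inhibitor of CDK4 and CDK6, rose and Cdkn2b, another, fell. Cdkn2d, Cdkn1a and Cdkn2a were not called in either fit. Their log2 fold changes were 0.61 ± 0.26, 0.22 ± 0.10 and 0.11 ± 0.23 in 6 libraries, and 0.30, 0.18 and -0.21 in 5.

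**Figure D4:**
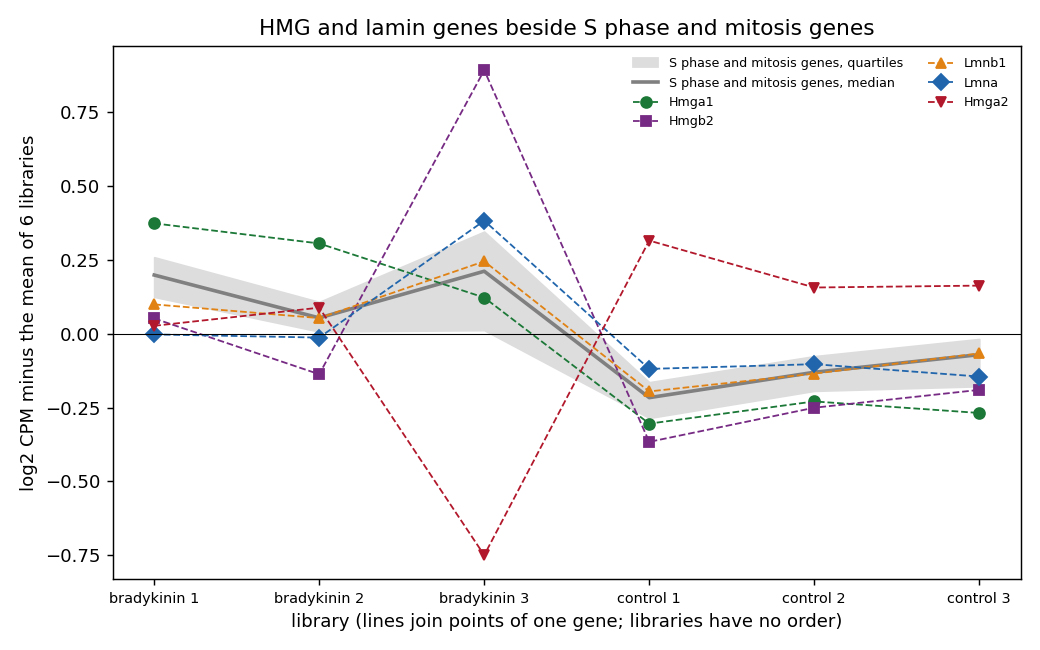
Log2 CPM of 5 of the genes in each library, relative to the gene's own mean over 6 libraries (vertical axis), over the median (grey line) and quartiles (grey band) of 38 S phase and mitosis genes; libraries have no order. Lmnb1 lies near the grey line, except in bradykinin replicate 1, where it is below the grey band at 0.10. Hmgb2 and Hmga2 are farthest from the line in bradykinin replicate 3, in opposite directions, at 0.89 and -0.75. Elsewhere Hmgb2 is below the band in every library, and Hmga2 is above it in the controls, at 0.32, 0.16 and 0.16. Hmga1 is highest in bradykinin replicate 1.

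The likeness of whole profiles was measured as the root mean square (RMS) difference between centred log2 CPM over 6 libraries, among 9818 well-expressed genes. The gene nearest to Lmnb1 was Kif23, a kinesin gene of cytokinesis (RMS 0.01), followed by Mcm3, a replicative helicase subunit gene (0.03), and Cyp4f6 (0.03). Kif23 and Mcm3 are also on the S phase and mitosis list. Lmnb1 and that list were both chosen with bradykinin over control values of these 6 libraries known. Nothing is therefore read from this match. Nearest to Hmgb2 were Stmn1, Crip1 and Gtf2a2 (each 0.06). Among the genes nearest to Hmga1 were Slc47a1 (0.06) and Spsb1 (0.07). Hmga2 was matched most closely by Gpr137b (0.02), Igsf3 (0.03) and Ccdc141 (0.04), and Hmgb1 only loosely, by Myh7b (0.09), 9130023H24Rik (0.10) and Rnf103 (0.11). For Hmgb3 the nearest were Dok1, Srsf6 and Cc2d1b, for Lmnb2 Srrd, Zfp146 and Dcaf6, and for Lmna Slc35b1, Rpl22 and Glt8d1.

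Among themselves the members did not share a single profile. The closest pair was Lmnb1 and Lmna (RMS 0.09), followed by Hmgb3 and Lmna (0.11) and Lmnb2 and Lmnb1 (0.12). Hmga1 was nearest to Lmnb1 (0.19), Hmga2 to Hmgb1 (0.23) and Hmgb2 to Lmna (0.25). In bradykinin replicate 3 the log2 deviation from the mean of the other 5 libraries was 1.07 for Hmgb2, 0.46 for Lmna, 0.41 for Hmgb3, 0.29 for Lmnb1 and 0.15 for Hmga1. It was -0.60 for Hmgb1 and -0.90 for Hmga2. The coefficient of variation was larger with bradykinin than in controls for 8 of 8 members, as for 10203 of 12413 tested genes.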

How the data were processed

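Polyadenylated RNA of 3 control and 3 bradykinin samples was sequenced in pairs on an Illumina NovaSeq, per the labels and the series design text. Groups follow the treatment label, which names bradykinin for the samples titled B2R. The authors deposited raw counts, whole numbers for each Ensembl gene. The submitters' processing notes name RSEM 1.3.3, HISAT2 2.2.1, fastp 0.23.2, DESeq2 1.34.0, Bowtie2 2.4.5, SAMtools and the build Rnor_6.0. RSEM gives estimates that need not be whole, and the labels do not say how these counts became whole. Where reads of similar genes were divided by estimate, Hmgb1 and Hmgb2 may be uncertain; the likeness of those genes was not measured. The labels do not state strandedness, so reads of a gene and an antisense partner cannot be told apart.

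Counts were tested with edgeR 4.0.16 (R 4.3.3): filterByExpr, TMM scaling, a two-sided quasi-likelihood F test and Benjamini-Hochberg adjustment over 12413 genes (12536 in 5 libraries). SEs were obtained as the absolute log2 fold change over the square root of F. CPM divide counts by the total over tested genes times the TMM factor. edgeR's common dispersion corresponded to a biological coefficient of variation of 0.168 in 6 libraries and 0.0537 in 5. Symbols came from Entrez identifiers in a RefSeq table of GRCr8, which named 15073 of 17139 rows. Promoters came from RefSeq in that assembly, a different build from that of the files.

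The members, lists and tests were chosen with earlier results of these data known. Named genes are the 8 members, up to 3 tested genes of each list with the smallest p in 6 libraries, and for each member up to 3 genes of the smallest RMS difference (average log2 CPM at least 2). Acan, Basp1, Car3, Krt8, Car12, Cd24, Acta2, Tagln, Myh11, Des, Col1a1, Runx2, Sp7, Col2a1, Pecam1 and Csf1r were named after their values were seen. So were Lin28a, Lin28b, Cxcr4, Cdkn1a, Cdkn2a, Cdkn2b, Cdkn2c and Cdkn2d, and the rows annotated as HMGB1 or HMGB2. Alternatives were RLE factors, library totals, DESeq2 1.42.0, limma-voom (limma 3.58.1), leaving out each library, the replicate block, and filtering not at all or at 1 CPM in 3 libraries. Hmgb4, Hmgxb3, Tmpo, Nrm, Fntb and E2f1, and the markers Krt18, Krt19 and Tbxt, were not analysed here. The same holds for the markers Cdh5, Ptprc, Adgre1, Itgam, Cd3e, Matn1, Epyc, Cnmd and Bglap. A gene chosen by the naming rule is not reported here. Protein sequences were not used here.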

Additional observations from a re-analysis of the deposited data

How the results depend on the processing

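In 6 libraries edgeR called 0 genes and 0 members, although 849 genes had an unadjusted p under 0.05. DESeq2 called 44 genes and 1 member, Hmga1, and limma-voom 0 genes. Leaving out each library in turn gave 0 to 388 genes and 0 to 1 members, and 388 came without bradykinin replicate 3. In the 5 libraries 388 genes and 1 member were called. With no filter on low counts this became 681 genes and 2 members, Hmga1 and Lmnb1. With the rows of the same orthology entry added it was 2 members, Hmga1 and Hmgb2, and leaving out a further library gave 138 to 333 genes with Hmga1 called each time. Where that left 1 bradykinin library, it was assumed to vary like the controls. Library totals in place of TMM turned the split of called genes from 244 higher and 144 lower to 162 and 185. That moved the median of all genes to -0.03 and no member changed side.

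Of 216 member fold changes under these alternatives, 208 kept direction and side of the threshold, 4 passed it and 4 changed sign. Hmgb1 turned to 0.116 in 6 libraries and 0.0386 in 5 with its rows summed, and to 0.0897 in 5 without bradykinin replicate 1, the highest on leaving out a library (lowest -0.57). Hmgb3 turned to -0.072 without bradykinin replicate 3, the lowest on leaving out a library (highest 0.18). The cause of these changes was not tested. The lamin ratio difference ranged from -0.04 to 0.09. CHR letters within 1 mismatch at either end were upstream of 6 of 8 members in place of 3, and of 53.69% of all genes.

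Replicates with the same number showed no shared deviation from their group means (correlations -0.09, -0.02 and -0.05 across genes). Bradykinin replicate 3 weighs heavily in the mean of its group, so this check could miss a real pairing. Numbers were not treated as pairs in the main fits. A fit with the replicate block called 0 genes in 6 libraries and 301 in 5, with Hmga1 the only member. Adding rows of one symbol could not be done, since each member had 1 row. Depth limits Hmga2 most, at 79 to 168 counts a library.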
